A study of Mus musculus with 6 samples.

Results

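Etv1, Etv4 and Etv5 encode the PEA3 subfamily of ETS transcription factors. Their rows were taken by symbol from a table of 23366 mouse genes, and all 3 were found and tested. The cells were SC4, a mouse Schwann cell line isolated from an Nf2-null schwannoma, so that both groups lack merlin, the tumour suppressor that Nf2 encodes. One group received a pool of siRNAs against YAP and the other a control siRNA, both by lipid transfection, and RNA was taken 48 hours later. YAP is a transcriptional co-activator that the Hippo pathway restrains, and the design asked which genes depend on it in these cells. Each group held 3 libraries, numbered 1 to 3 in the labels, from 1 cell line. Nothing in the labels ties the libraries to separate cultures; p-values therefore cover the spread between libraries, which may be technical.

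PEA3 factors bind DNA through an ETS domain and turn the RAS-MEK-ERK cascade into gene expression: ERK and its downstream kinases phosphorylate them, and the ubiquitin ligase COP1 marks them for degradation. Their own genes are held down by the repressor Capicua (CIC), which ERK signalling removes, so that fibroblast growth factor or other receptor tyrosine kinase signalling raises their transcripts. In Schwann cells neuregulin, acting through ERBB3 and ERBB2, is a main source of ERK signalling.

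The deposited values were read counts scaled by a size factor for each library. Whole reads could be recovered from them, and the libraries held 18025132 to 60078880 reads in genes. Replicate 1 of both groups stood apart from replicates 2 and 3 along the first principal component, which held 63.5% of the variance. Yap1, which the siRNA pool targets, was lower in 3 of 3 treated libraries: it had 660.8 ± 244 normalized counts after YAP siRNA and 5078 ± 567 after control siRNA (SD, n = 3 each). Of the Schwann cell markers, 6 of 10 reached a mean of 10 normalized counts; Mbp and Ngfr were among them, while Sox10, S100b and Gfap had group means of at most 10.1. The summed markers ranged from 4107 to 5435 normalized counts after YAP siRNA and from 4719 to 6534 after control siRNA. The sums of 4 epithelial markers were 79.3 to 93.4 after YAP siRNA and 267 to 498 after control siRNA, led by Krt18 and Krt8, with Cdh1 near 0. Those of 5 macrophage markers were 193 to 252 after YAP siRNA and 284 to 322 after control siRNA, with Emr1 and Itgam near 0. Of these, Csf1r had 76.2 ± 11.9 normalized counts after YAP siRNA and 161 ± 38.6 after control siRNA (SD, n = 3 each). Cd68 had 126 ± 26.5 and 129 ± 30.1, and Ptprc 16.3 ± 11.9 and 13.3 ± 14.6. The sums of 6 fibroblast markers were 193697 to 376995 after YAP siRNA and 241216 to 512375 after control siRNA, nearly all of it Col1a1 and Col1a2. Those of 4 endothelial markers were 186 to 271 after YAP siRNA and 150 to 235 after control siRNA. The part of any of these in the results below was not tested. In such bulk RNA, fewer cells of a kind and less RNA per cell cannot be told apart.

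Etv4 and Etv5 fell with YAP siRNA in a fit with the replicate number as a term, but did not pass in unpaired limma. Their mean normalized counts were 34.3% and 33.3% of the control means. Etv1 passed in neither fit. Genes were tested as log2(normalized count + 1) with limma over the 12820 genes whose mean was 10 or more, and Benjamini-Hochberg adjusted p-values under 0.05 were called. Without pairing, limma called no gene in either direction (0% higher and 0% lower), while 1558 genes had an unadjusted p under 0.05, edgeR called 0 and DESeq2 called 330 higher and 399 lower (2.57% and 3.11%), Etv4 among the lower ones but not Etv1 or Etv5. Libraries with the same number deviated together from their group means, though replicates 2 and 3 also did so across numbers. A blocked fit, with the replicate number as a term, is therefore given beside the unpaired one. The unpaired limma fit was the planned main test, and Yap1 did not pass in it either (limma adjusted p = 0.118). That blocked fit called 8.32% of tested genes higher and 8.96% lower. Of the PEA3 genes it called 2 of 3 lower, Etv4 and Etv5, and 0 higher. Their median log2 fold change was −1.67, against 0.0094 over all tested genes. In what follows, "rose" and "fell" are used only of genes that passed in this blocked limma fit.

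Etv4, which is also called Pea3 and with Etv5 acts downstream of RET in branching of the kidney, was the member with the most reads. It had 1362, 680 and 502 normalized counts in YAP siRNA replicates 1, 2 and 3, against 2575, 2360 and 2479 in control replicates 1, 2 and 3. The groups did not overlap, and the controls lay close together while the treated libraries were spread 2.71-fold, replicate 1 highest. Across all tested genes, 9.49% were lower without overlap. The log2 fold change of Etv4 was −1.67 (95% interval −2.17 to −1.17, limma adjusted p = 0.0032 in the blocked fit and 0.189 in the unblocked one), a 3.18-fold fall on that scale. The two-sided exact permutation p was 0.1, and 3 against 3 libraries allow none smaller. With the block Etv4 also passed when replicate 1, 2 or 3 of both groups was left out, with limma adjusted p of 4.4e-66, 0.0169 and 2.4e-07; without a mean-variance trend it did not (limma adjusted p = 0.0899). With a replicate number left out, the p-values rest largely on variance borrowed from other genes.

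Etv5, also called ERM, which maintains spermatogonial stem cells in the testis, was lower by a like amount. It had 400.3, 114 and 87.4 normalized counts in YAP siRNA replicates 1, 2 and 3, against 856, 459 and 490 in control replicates 1, 2 and 3. The groups did not overlap, and replicate 1 was the highest library of each: the treated replicate 1 came near the lowest control. Its log2 fold change was −1.86 (95% interval −2.42 to −1.29, limma adjusted p = 0.00342 in the blocked fit and 0.294 in the unblocked one; exact permutation p = 0.1). Without replicate 2 of both groups the limma adjusted p with the block was 0.0205, and without a mean-variance trend it was 0.0826.

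Etv1, also called ER81, which is required for the connections of muscle sensory neurons, had 274, 187 and 252 normalized counts in YAP siRNA replicates 1, 2 and 3, against 226, 426 and 517 in control replicates 1, 2 and 3. Here the groups overlapped, because control replicate 1 lay below 2 of the 3 treated libraries. The log2 fold change of −0.65 did not pass (95% interval −1.27 to −0.026, limma adjusted p = 0.131 in the blocked fit and 0.534 in the unblocked one; exact permutation p = 0.3). Without replicate 1 of both groups it was −1.11 and passed with the block (limma adjusted p = 5.9e-09), so the call depends on that replicate number.

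**Figure D1:**
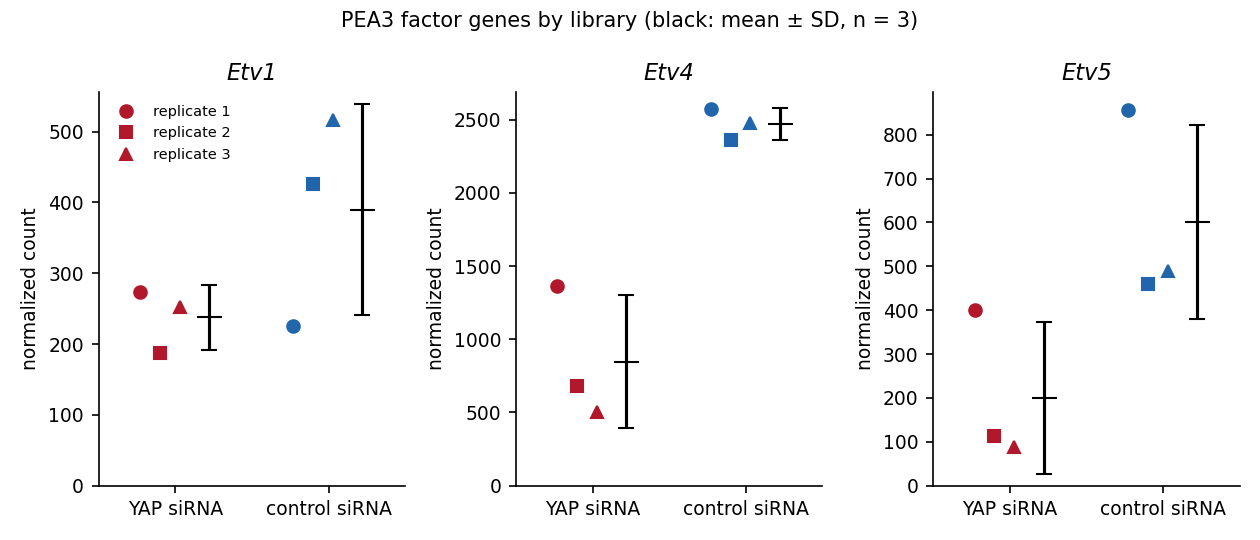
Normalized counts of Etv1, Etv4 and Etv5 (y axis, from 0) in each library after YAP siRNA (red) and control siRNA (blue); the symbol gives the replicate number, and the black bar the mean ± SD of 3 libraries. The groups are apart for Etv4 and Etv5, while control replicate 1 of Etv1, at 226, lies among the treated libraries.

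Taken replicate number by replicate number, Etv4 and Etv5 were lower in 3 of 3 and Etv1 in 2 of 3. Across all tested genes, 27.1% were lower in 3 of 3. In replicate 1 the treated library had 52.9% of the control's Etv4 level, with a 95% counting interval of 0.490 to 0.571 for the ratio. In replicate 2 it had 28.8% and in replicate 3 20.2%. The corresponding values for Etv5 were 46.8%, 24.8% and 17.8%, so both genes differed least in replicate 1 and most in replicate 3. Of all tested genes, 9.52% were lower in each replicate number with that order of sizes.

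The Etv1 ratio was 1.21 in replicate 1, with an interval of 0.982 to 1.5 that includes equality, and 0.438 and 0.487 in replicates 2 and 3, with intervals of 0.369 to 0.518 and 0.412 to 0.574. Across all tested genes 11.8% were higher in replicate 1 and lower in replicates 2 and 3. Yap1 itself was at 19.7% of the control in replicate 1 and at 9.97% and 9.99% in replicates 2 and 3. The intervals are exact binomial and cover counting error only. They rest on few reads in places: Etv5 had 333, 113 and 58 reads in YAP siRNA replicates 1, 2 and 3, against 564, 589 and 1063 in the controls, and Etv1 had 149 reads in control replicate 1.

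**Figure D2:**
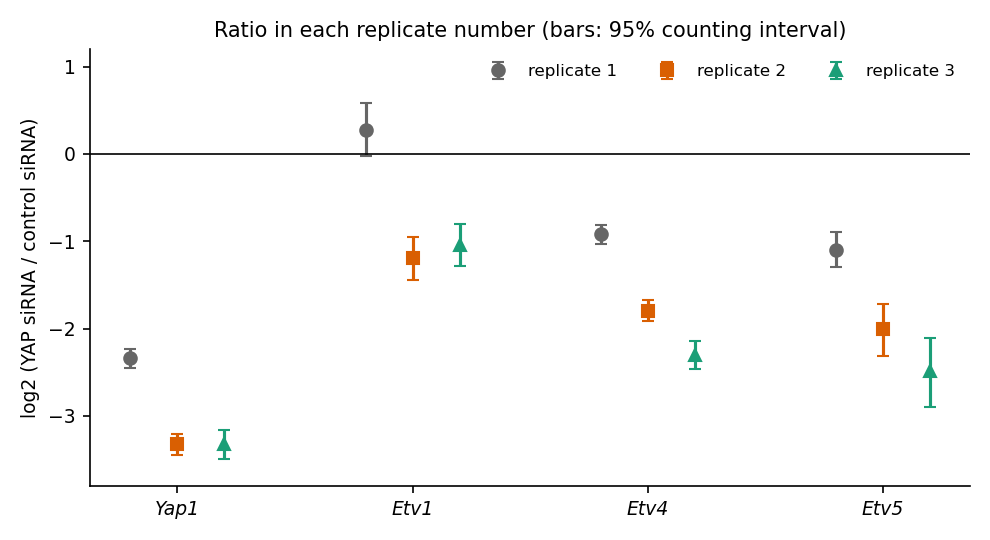
The log2 ratio of YAP siRNA over control siRNA (y axis) for Yap1, Etv1, Etv4 and Etv5 within each replicate number, with exact binomial 95% counting intervals as bars. Etv4 and Etv5 lie below 0 in each replicate number, at −0.92 and −1.10 in replicate 1, and Etv1 is at 0.28 in replicate 1.

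Whether the members responded unequally was tested on their log2 ratio within each library. The Etv4 to Etv1 ratio averaged 1.72 ± 0.67 after YAP siRNA and 2.74 ± 0.67 after control siRNA (SD, n = 3 each), a difference of −1.02 (exact permutation test, two-sided, p = 0.2, and 0.45 adjusted over the 3 comparisons). The Etv5 to Etv1 ratio differed by −1.21 (exact permutation p = 0.3, adjusted 0.45). The Etv5 to Etv4 ratio averaged −2.28 ± 0.45 after YAP siRNA and −2.09 ± 0.44 after control siRNA, a difference of −0.18 (SD, n = 3 each; exact permutation p = 0.5, adjusted 0.5). This exact test ignores the replicate numbers and cannot go below p = 0.1 here, and its spread holds the offset of replicate 1, which had the highest of each ratio in both groups. Within replicate numbers 1, 2 and 3 the Etv4 to Etv1 ratio differed by −1.19, −0.61 and −1.27 on the log2 scale (mean −1.02 ± 0.36, SD of 3 pairs). The Etv5 to Etv1 ratio differed by −1.37, −0.81 and −1.44 (mean −1.21 ± 0.34, SD of 3 pairs), so that after YAP siRNA both ratios to Etv1 were lower in 3 of 3 pairs, by more than the spread between pairs. The Etv5 to Etv4 ratio differed by −0.18, −0.21 and −0.17 (mean −0.18 ± 0.020, SD of 3 pairs). It too was lower in 3 of 3 pairs by more than the spread between pairs. Its counting errors were 0.11, 0.16 and 0.21 (SE), and each difference was within 2 such errors of 0. An exact sign-flip test over the pairs, two-sided and added after the data had been seen, gave p = 0.25 for each of the 3 ratios, the smallest that 3 pairs allow, so neither exact test can call a difference here.

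Levels can be compared between genes only per length. Exons of GENCODE M21 joined over all transcripts of a gene measured 13.3 kb for Etv1, 3.10 kb for Etv4 and 4.10 kb for Etv5. Per kb, Etv4 had 273 ± 146 normalized counts after YAP siRNA and 796 ± 34.8 after control siRNA (SD, n = 3 each). Etv5 had 48.9 ± 42.3 and Etv1 17.9 ± 3.41 after YAP siRNA, and Etv5 had 147 ± 53.8 and Etv1 29.3 ± 11.2 after control siRNA. The order Etv4, Etv5, Etv1 had no overlap between neighbours in either group. After YAP siRNA, though, the lowest Etv5 library had 21.3 per kb and the highest Etv1 library 20.6. Without the division by length, Etv1 lay above Etv5 in YAP siRNA replicates 2 and 3 and in control replicate 3. Of the 3 levels added up, Etv4 made up 78.8 to 84.0% in the YAP siRNA libraries and 78.6 to 84.1% in the control libraries. The length of Etv1 comes from 13 annotated transcripts, and its level per kb is lower the more of that length the cells do not use. The order of Etv5 and Etv1 therefore depends on the length taken for Etv1.

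Etv5 shared 30.3% of its 31-mers with annotated pseudogenes, Etv1 9.42% and Etv4 0%, and no 31-mer occurred in more than 1 of the 3 genes. How reads in such sequence were counted is not given in the sources used here, so the levels of Etv5 and Etv1 carry that uncertainty. The pseudogenes that shared the most, Gm4798 for Etv5 and Gm5454, Gm10172 and Gm10038 for Etv1, had no row among the 23366 genes. Etv5 also carries the 7-mer CTACATA in its annotated 3' UTR at 2 places, whereas Etv4 and Etv1 carry none. An earlier analysis of these data picked that 7-mer because its carriers were lower. Here 15.4% of 1263 tested carriers were called lower with the block, against 8.61% of 10349 genes without it, and the medians of the log2 fold change were −0.051 and 0.013. The part of this 7-mer in the Etv5 value was not tested. Both sites are shown, from GENCODE M21 transcripts of a gene on chromosome 16, with the 7-mer in capitals.
Etv5 first site: tgtacataCTACATAcatgtcac
Etv5 second site: gtcacataCTACATAcatgtcat

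The promoter windows of the members, 250 bases before each annotated start, were searched on both strands. The motifs were the core of the TEAD motif, through which YAP acts on DNA (GGAATG), an AP-1 motif (TGANTCA) and an ETS core (CCGGAAG). Added to these were a form of the CIC octamer with an open base (TGAATGNA) and its core (TGAATG, which that form contains). Other forms of the octamer were not searched. RefSeq windows were at hand for Etv1 and Etv5, 2 for each, on build GRCm38.p6, which is not the build of the counts. The TEAD core occurred in 1 of 2 Etv1 windows, 78 bases before the start, and in 0 of 2 Etv5 windows; 12.6% of 32851 windows of that length hold it. The CIC core occurred 3 times in 1 Etv5 window, 242, 198 and 129 bases before the start, and in 0 Etv1 windows; 10.9% of windows hold it at least once and 0.131% at least 3 times. The AP-1 motif, found in 6.75% of windows, this form of the CIC octamer, in 3.20%, and the ETS core, in 6.91%, were in none of the 4. The motifs were chosen after the sequences had been seen. A match is a run of letters and not a bound site. The 2 windows with a match are shown with the TEAD core or CIC core, or its reverse complement, in capitals; the Etv1 one is chr12:38779832-38780081 on the plus strand and the Etv5 one chr16:22438369-22438618 on the minus strand, downstream of the gene's other annotated start.
Etv1 window: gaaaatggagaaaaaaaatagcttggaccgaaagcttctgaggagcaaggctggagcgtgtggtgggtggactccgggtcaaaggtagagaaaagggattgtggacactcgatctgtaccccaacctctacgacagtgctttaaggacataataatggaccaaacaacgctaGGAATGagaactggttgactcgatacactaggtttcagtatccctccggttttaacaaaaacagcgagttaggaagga
Etv5 window: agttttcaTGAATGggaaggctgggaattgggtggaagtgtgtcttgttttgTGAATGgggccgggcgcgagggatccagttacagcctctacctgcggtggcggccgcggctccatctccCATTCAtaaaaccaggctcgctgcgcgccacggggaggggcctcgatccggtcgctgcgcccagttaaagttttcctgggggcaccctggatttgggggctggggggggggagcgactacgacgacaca

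Among the other ETS factor genes, those that passed were higher after YAP siRNA. Of 22 that were analysed 14 reached the level for testing, and 4 of these were called higher and 0 lower with the block (0 without), with a median log2 fold change of 0.027. Over all tested genes the block called 8.32% higher and 8.96% lower. Ets2, whose product is phosphorylated by ERK, rose to 10913 ± 3417 normalized counts after YAP siRNA, against 5822 ± 95.5 after control siRNA (SD, n = 3 each; log2 fold change 0.85, limma adjusted p = 0.0112 with the block). On the log2 scale its relative Ets1 rose by 0.29 and Elk3, which works with serum response factor, by 0.36. Erf, an ETS repressor that ERK drives out of the nucleus, rose by 0.38. The blocked limma adjusted p was 0.0478 for Ets1, 0.0245 for Elk3 and 0.038 for Erf, whose groups overlapped. Erg was at −0.69, short of the threshold (blocked limma adjusted p = 0.13). Between −0.65 for Etv1 and −1.67 for Etv4 lay only Erg. No test of the PEA3 genes against these others was made.

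**Figure D3:**
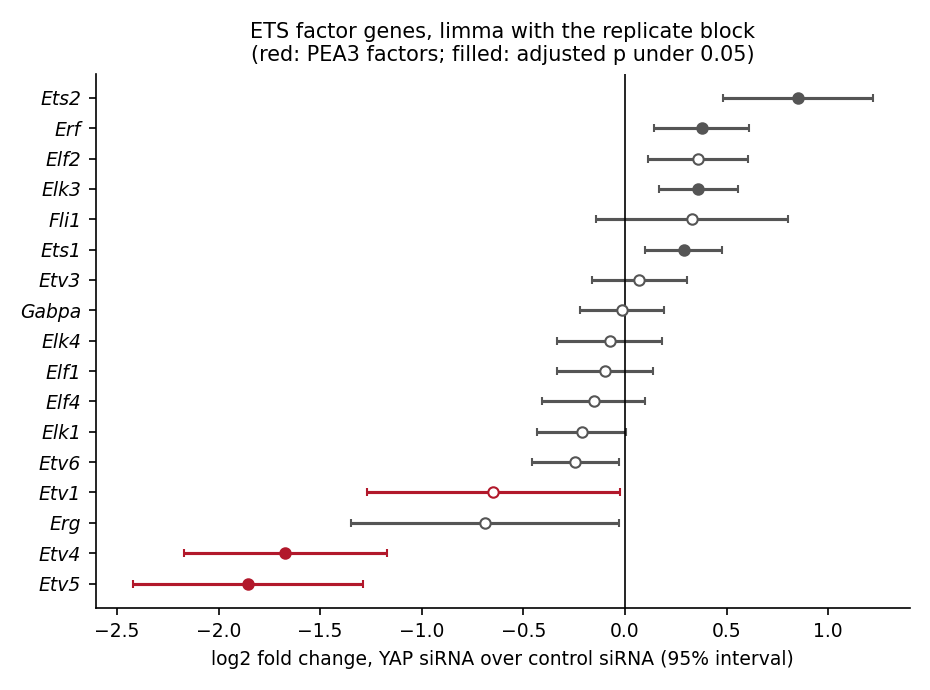
Log2 fold change of YAP siRNA over control siRNA (x axis) for the 17 tested ETS factor genes from limma with the replicate block, with 95% intervals as bars; PEA3 genes are red and filled points passed. Etv4 and Etv5 lie lowest, at −1.67 and −1.86, and the 4 other genes that passed lie above 0.

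Regulators of the PEA3 genes and proteins moved in both directions. Of the CIC repressor complex, Cic itself had a log2 fold change of −0.094 (95% interval −0.32 to 0.14 with the block, limma adjusted p = 0.55), measured over libraries that differed widely: 5274 ± 2188 normalized counts after YAP siRNA and 5481 ± 1929 after control siRNA (SD, n = 3 each). Its partner Atxn1 fell to 1792 ± 233 after YAP siRNA, against 3394 ± 716 after control siRNA, and the related Atxn1l rose to 2925 ± 129.7, against 1940 ± 310 (SD, n = 3 each; limma adjusted p = 0.00174 and 0.011 with the block). Of 8 genes of COP1-mediated degradation 0 were higher and 1 lower: Trib1, an adaptor that brings substrates to COP1, fell by 0.70 on the log2 scale. A count of 1 in 8 is near the 8.96% of all tested genes that were called lower. Det1, Cul4b and Cops5 had log2 fold changes of 0.37, 0.20 and −0.19 that did not pass.

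The cascade above the PEA3 factors was mostly not called. Of 11 tested RAS, RAF, MEK, ERK and RSK genes 1 was higher and 0 lower with the block, with a median log2 fold change of −0.029. The block called 8.32% of all tested genes higher and 8.96% lower, and 1 in 11 higher is near that share. Map2k1, which encodes the ERK kinase MEK1, and Rps6ka3, which encodes an RSK kinase that ERK activates, had log2 fold changes of −0.19 and −0.36 that did not pass. Of 11 tested receptor tyrosine kinase genes 2 were higher and 0 lower: Pdgfrb rose by 0.98 and the neuregulin receptor gene Erbb3 by 1.12, to 151 ± 12.3 normalized counts after YAP siRNA, against 71.2 ± 21.6 after control siRNA (SD, n = 3 each). Met and Igf1r were at −0.29 and −0.27 and did not pass. Of the coactivator genes Crebbp, Ep300, Med25 and Usf1, 0 of 4 passed, with log2 fold changes between −0.21 and 0.11.

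Among genes known to be induced by ERK signalling or held down by CIC, most that passed were lower. Of 18 tested ERK output genes 1 was higher and 8 lower with the block, with a median log2 fold change of −0.37. For these lists too, the shares over all tested genes were 8.32% higher and 8.96% lower. The ERK phosphatase gene Dusp5 had a log2 fold change of −1.41, the feedback inhibitor gene Spred3 of −1.36 and the early response gene Ier3 of −1.16. The inhibitor gene Spry1 was the only ERK output gene that rose. Fos, Dusp4, Dusp6 and Spry2 did not pass, at −0.71, −0.24, −0.23 and −0.027. Myc, Egr1, Spred2, Spred1 and Il17rd did not pass either, at 0.039, 0.10, 0.12, 0.32 and 0.49. Of 11 genes reported as CIC targets, of which 7 are also in that list, 0 were higher and 3 lower, with a median of −0.24. Among those 3, Spry4 and Fosl1 are also counted in the ERK output list. Spry4, a further feedback inhibitor, fell to 239 ± 65.7 normalized counts after YAP siRNA, against 644 ± 246 after control siRNA (SD, n = 3 each), with log2 ratios of −0.34, −2.12 and −1.69 in replicates 1, 2 and 3. The cyclin E1 gene Ccne1 and the AP-1 gene Fosl1 fell, with log2 fold changes of −1.11 and −0.70, and Shc3 was at −0.96, short of the threshold (blocked limma adjusted p = 0.0602). Of 11 tested genes reported as PEA3 targets in other cells 0 were higher and 5 lower, with a median of −0.44. Ptgs2, the collagenase gene Mmp13, the osteopontin gene Spp1 and the gelatinase gene Mmp9 fell, with log2 fold changes of −2.64, −2.21, −2.11 and −0.55. The groups overlapped for Mmp13 and Mmp9. Mmp13 was low, with 24.7 ± 13.8 normalized counts after YAP siRNA, against 142 ± 96.9 after control siRNA (SD, n = 3 each). The log2 ratio of Mmp9 was −0.057 in replicate 1. None of the genes in these lists passed without the block in limma.

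**Figure D4:**
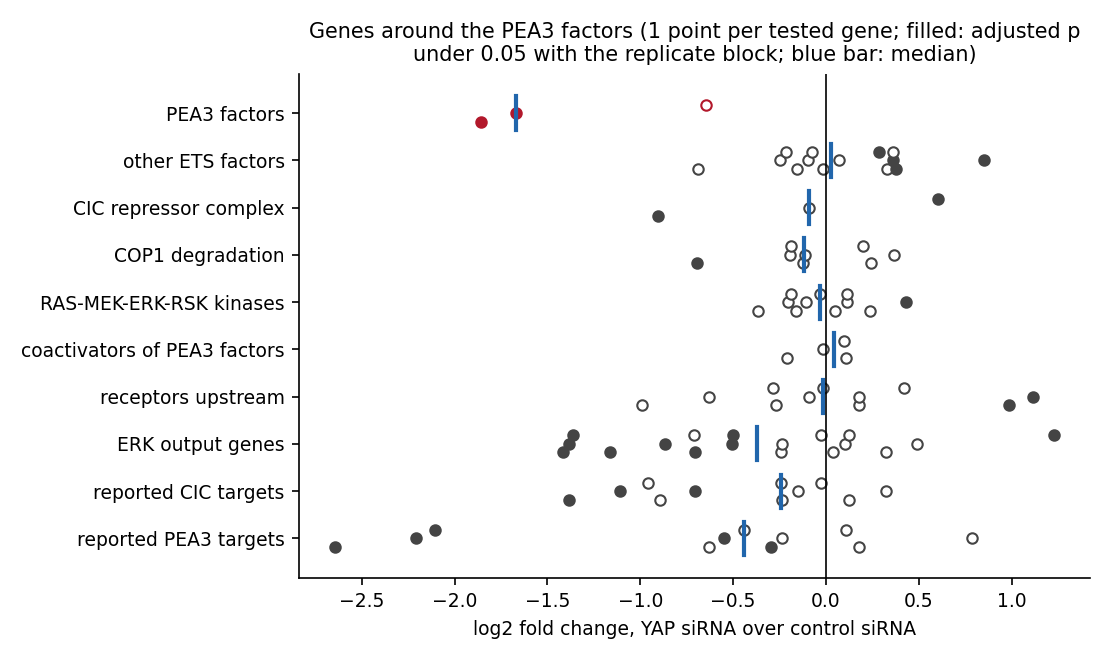
Log2 fold change of YAP siRNA over control siRNA (x axis) for each tested gene of 10 lists around the PEA3 factors; filled points passed in limma with the replicate block, the blue bar is the median of a list, and the vertical offset only separates points. The medians of the ERK output and reported PEA3 target lists are −0.37 and −0.44, and those of the 5 lists of regulators, kinases, coactivators and receptors lie between −0.12 and 0.041.

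Likeness of pattern was measured as Pearson's r of log2(normalized count + 1) over the 6 libraries, which share the siRNA difference and the offset of replicate 1, and is given as a description. Etv4 and Etv5 had r = 0.964 with each other, and Etv5 came 88th of 11224 genes with a mean of at least 50 in likeness to Etv4. Etv1 had r = 0.608 with Etv4 and 0.438 with Etv5. The genes with a symbol that were most like Etv4 were the amino acid transporter genes Slc7a6 and Slc38a1, Btbd11, Nomo1 and the integrin gene Itgb7, with r between 0.992 and 0.998 over 6 libraries. These genes differed in the size of their fall, with log2 fold changes from −0.42 for Slc7a6 to −1.79 for Itgb7. Most like Etv5 were Morn4, Brms1l, the urokinase receptor gene Plaur, Rnf145 and Med18, with r between 0.990 and 0.995. Plaur fell to 901 ± 351 normalized counts after YAP siRNA, against 1655 ± 272 after control siRNA (SD, n = 3 each). Most like Etv1 were Dagla, Rgl2, Rab4a, Tnk2 and Lpin3, with r between 0.989 and 0.996, and 0 of these 5 passed with the block.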

How the data were processed

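Poly(A) RNA of SC4 cells was fragmented, ligated to directional adapters and sequenced as barcoded libraries, per the labels' protocols. The submitters' processing notes name the build mm9, the aligner TopHat2 2.0.9, the counter HTSeq 0.6.1 and, for normalization, DESeq 1.14.0; for the gene annotation, strand setting and filters nothing is given in the sources used here. The deposited values are a signal, gene counts that the authors divided by a size factor. In each library 100% of values above 0 were whole multiples of 1 step within 0.01 reads, so reads were recovered for edgeR 4.0.16 and DESeq2 1.42.0.

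Here, log2(value + 1) was tested with limma 3.58.1 in R 4.3.3 (mean-variance trend, two-sided) over the 12820 genes whose mean reached 10. With the replicate block, edgeR called 1190 genes higher and 1289 lower. As a check of pairing, each library's deviation from its group mean was correlated with that of the same number in the other group. This gave 0.788, 0.705 and 0.532 over genes. Each exceeded 0.1, so libraries were treated as paired by number. However, YAP siRNA replicate 2 with control replicate 3 gave 0.516, and YAP siRNA replicate 3 with control replicate 2 gave 0.552. The check therefore cannot tell which libraries of replicates 2 and 3 belong together. The pairing comes from this check and not from a label, and the check mainly shows a shared deviation of replicate 1. The methods were tested on simulated counts. In these both groups shared the mean of each replicate number, so the simulation cannot test the pairing. Members and lists were chosen with earlier results of these data known. Named by rule were the members, Yap1, up to 4 tested genes with the smallest blocked p in each list and the 5 genes most like each member. Erg and the tested ERK output genes that did not pass were named besides. The 7-mer and the motifs were chosen after the data had been seen. Single values of some list genes are not reported here. Transcripts, UTRs and lengths are from GENCODE M21, promoter windows from RefSeq.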

Additional observations from a re-analysis of the deposited data

How the results depend on the processing

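The fall of Etv4 and Etv5 kept its direction under all alternatives tried, and its call depended on the block and the variance model. With the replicate block, which pairs libraries of one number, the log2 fold changes were −3.00 for Yap1, −1.67 for Etv4 and −1.86 for Etv5, past the threshold. Of the fits that passed, edgeR with the block gave −2.99, −1.66 and −1.81, DESeq2 with the block −3.00, −1.67 and −1.84, and limma with one total per library and the block −2.97, −1.64 and −1.83. DESeq2 without the block passed for Yap1 (−2.94) and Etv4 (−1.54) but not Etv5. With 1 library left out and no block, the values ranged from −3.28 to −2.79 for Yap1, −0.998 to −0.40 for Etv1, −2.08 to −1.36 for Etv4 and −2.52 to −1.43 for Etv5, and Yap1 passed without replicate 1 of either group. With the block and without replicate 1, 2 or 3 of both groups they were −3.32, −2.83 and −2.83 for Yap1, −1.11, −0.38 and −0.46 for Etv1, −2.05, −1.61 and −1.36 for Etv4 and −2.24, −1.78 and −1.55 for Etv5; Etv1 passed there without replicate 1 and under no other alternative. The differences in ratio ranged from −1.32 to −0.64 for Etv4 to Etv1, from −1.76 to −0.57 for Etv5 to Etv1 and from −0.44 to 0.069 for Etv5 to Etv4, which turned above 0 without control replicate 1; paired by replicate number, an alternative chosen after seeing the data, they kept the same means.

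Calls higher and lower were 1067 and 1149 with the block, 1190 and 1289 in edgeR and 1182 and 1308 in DESeq2 with the block, 330 and 399 in DESeq2 without it, 12 and 18 with the block and no trend, and 1225 and 1027 with one total and the block. With the block they were 2804 and 2792 without replicate 1 of both groups, 123 and 177 without replicate 2 and 538 and 590 without replicate 3. With 1 library left out and no block they ranged from 0 to 192 and from 0 to 305, both highest without control replicate 1. Pseudocounts of 0.5 and 10, other filters, one total, quantiles, no trend and edgeR without the block called 0 either way. The causes were not tested. Depth limits Etv5 most, with 58 reads in YAP siRNA replicate 3.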
